A study of Homo with 4 samples.

Results

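The 39 genes described here encode the enzymes and transporters that carry glucose carbon through glycolysis, lactate formation, the pentose phosphate pathway and glycogen metabolism. They were taken by symbol from textbook pathway membership, out of 20263 genes with estimated counts, by a rule that names no measured value but was written with earlier results of these data known. 22 belong to glycolysis, 4 to lactate formation and export, 6 to the pentose phosphate pathway and 7 to glycogen metabolism. All 39 passed the filter on low counts, as did 13379 genes in all.

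RNA-seq was performed in H1299 cells, an established line of human non-small cell lung cancer. One group was infected with lentivirus carrying a control short hairpin RNA (shCtrl, given the genotype WT in the labels) and the other with lentivirus carrying a hairpin against IGF2BP3 (shIGF2BP3), an RNA-binding protein that reads N6-methyladenosine and stabilizes mRNA. Each group had 2 libraries of total RNA prepared with an mRNA kit. The cells were grown in 1640 medium with fetal bovine serum, no time after infection was given, and it was not stated whether both shIGF2BP3 libraries carried the same hairpin.

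Glycolysis splits glucose into pyruvate in the cytosol and yields ATP, and cancer cells often run it at a high rate and release the carbon as lactate. Hexokinase and phosphofructokinase spend ATP in the upper steps, and phosphoglycerate kinase and pyruvate kinase return it in the lower steps. The pentose phosphate pathway draws glucose 6-phosphate away to make NADPH and ribose, and glycogen synthesis and breakdown store and release it. Most steps are served by several isoenzymes, encoded by separate genes.

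Total counts were between 29709686 and 34817513 per library, and the libraries of each group differed by more than counting noise (chi-square per degree of freedom 75.7 in shCtrl and 75.1 in shIGF2BP3). IGF2BP3 itself stood at 41.1 and 32.9 CPM (counts scaled by library size) in shCtrl and at 26.4 and 24.8 in shIGF2BP3, a fitted log2 fold change of -0.53 ± 0.17 (SE) and an adjusted p of 0.472 (edgeR quasi-likelihood test). This was 69.1% of the control level. Mitochondrially encoded genes took 9.11% and 13.43% of counts in shCtrl and 11.42% and 17.02% in shIGF2BP3, and their part in the differences below was not tested. The epithelial keratins KRT8 and KRT18 were abundant, whereas the epithelial markers EPCAM and CDH1 and the lung epithelial markers NKX2-1, SFTPB and NAPSA were at or near 0, and so were the leukocyte marker PTPRC and the endothelial markers PECAM1 and CDH5. CD68, a lysosomal protein listed as a leukocyte marker, stood at 44.6 and 44.4 CPM in shCtrl and at 49.9 and 47.8 CPM in shIGF2BP3.

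Expression of the glycolytic genes was lower in shIGF2BP3 as a group. 20 of the 22 had a negative log2 fold change, as did 50.2% of all genes tested, and the median was -0.32, whereas the median of all genes was -0.002. The glycolysis median lay between -0.31 and -0.27 when any of the 4 libraries was left out. In bulk cultures, fewer cells with a transcript and less of it per cell cannot be told apart. The side branches were nearer to that level, with a median of -0.10 over their 17 members, 10 of them negative. By branch the medians were -0.12 for lactate formation and export, 0.03 for the pentose phosphate pathway and -0.15 for glycogen metabolism. The differences between branches were not tested.

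Of the 39 members, 3 were lower by the study's thresholds (a fold of 1.5 or more, unadjusted p up to 0.05), namely PGK1, PFKFB4 and GAPDHS, and 2.78% of all genes tested met the same thresholds in that direction. None was higher at those thresholds, which 2.54% of all genes met. By that p alone, 8 members were lower against 5.12% of all genes, and none was higher against 5.43% of all genes. All 8 were glycolytic (36.4% of the 22). No side-branch member reached that p, the smallest being 0.0527 for PYGB in edgeR's quasi-likelihood test. This limit to glycolysis was narrow, since PYGB passed in DESeq2 (unadjusted p of 0.0382), without the low-count filter (0.0482) and with at least 10 counts in every library (0.0485), and SLC16A3 passed in limma without a filter (0.0459). After Benjamini-Hochberg adjustment over all genes tested, edgeR's quasi-likelihood test called no member at an adjusted p under 0.05, as it called no gene. DESeq2 called PGK1, but the share of all genes that DESeq2 called at that adjusted p is not given here. The count of 8 depended on single libraries. Without shCtrl replicate 1 it was 6 (PFKFB4, PFKL and PGK1 of the 8, with ALDOA, TPI1 and SLC16A3), against 4.25% of all genes. Without shCtrl replicate 2 it was 1 (PGK1), against 2.86%. Without shIGF2BP3 replicate 1 it was 9 (6 of the 8, with LDHA, PGM1 and PYGB), against 7.04%. Without shIGF2BP3 replicate 2 it was 2, HK2 and SLC16A1, neither among the 8, against 2.89%.

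Both shIGF2BP3 libraries lay below both shCtrl libraries for 18 members, against 23.5% of all genes tested. 13 of these were glycolytic, 1 handled lactate, 1 was of the pentose phosphate pathway and 3 were of glycogen metabolism. No member had both shIGF2BP3 libraries above both shCtrl libraries, an arrangement found for 23.3% of all genes.

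**Figure D1:**
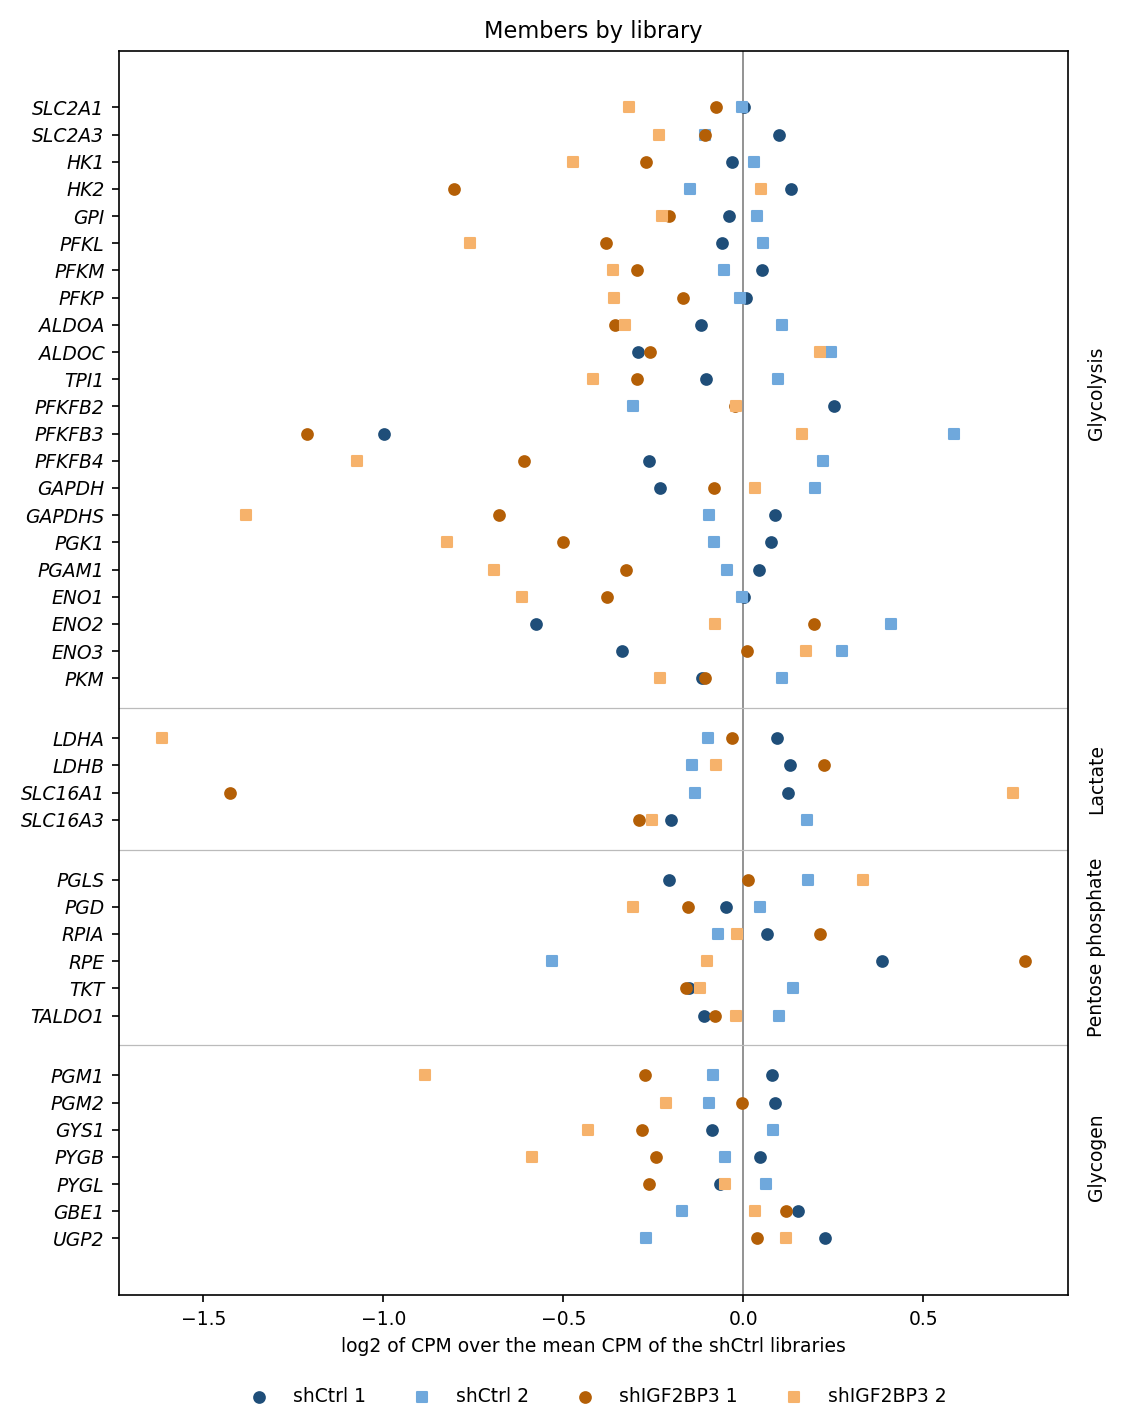
Level of each member in each library, as log2 of its CPM over the mean CPM of the shCtrl libraries (x axis), with members in pathway order (y axis) and 1 point per library. In the glycolysis block 13 of 22 members have both shIGF2BP3 points left of both shCtrl points, while LDHA and SLC16A1 have shIGF2BP3 points far apart.

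The transporters encoded by SLC2A1 (GLUT1) and SLC2A3 (GLUT3) carry glucose into cells, and RNA levels do not measure that uptake. SLC2A1 stood at 61.8 and 61.5 CPM in shCtrl and at 58.5 and 49.5 in shIGF2BP3. The groups did not overlap, but the log2 fold change of -0.19 ± 0.14 (SE) did not pass the test. SLC2A3 had a log2 fold change of -0.17 ± 0.15 (SE) with overlapping groups. The share of SLC2A1 in the summed counts of both transporters was 60.1% and 63.3% in shCtrl and 62.1% and 60.3% in shIGF2BP3, so the balance between them was within the spread of the libraries.

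Hexokinases trap glucose as glucose 6-phosphate. HK1, the general isoenzyme, stood at 79.6 and 82.9 CPM in shCtrl and at 67.4 and 58.5 in shIGF2BP3. Its groups did not overlap, and the log2 fold change was -0.37 ± 0.14 (SE), with an unadjusted p of 0.0425 and an adjusted p of 0.472 in edgeR's quasi-likelihood test. HK2, the isoenzyme many tumours induce, stood at 30.8 and 25.3 CPM in shCtrl and at 16.1 and 29.1 in shIGF2BP3. Here only shIGF2BP3 replicate 1 was low, and the log2 fold change went from -0.80 without shIGF2BP3 replicate 2 to 0.06 without shIGF2BP3 replicate 1.

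The next steps convert glucose 6-phosphate into triose phosphates. GPI, which isomerizes it to fructose 6-phosphate, stood at 585 and 617 CPM in shCtrl and at 522 and 515 in shIGF2BP3, a log2 fold change of -0.21 ± 0.13 (SE). Its groups were close but separate. Some reads of GPI may belong to a gene that overlaps it on the same strand, as may some of ALDOC and ENO2.

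Phosphofructokinase commits the sugar to glycolysis and is built from 3 kinds of subunit, named for liver, muscle and platelets. PFKL stood at 79.6 and 86.1 CPM in shCtrl and at 63.6 and 48.9 in shIGF2BP3, with a log2 fold change of -0.56 ± 0.17 (SE) and an unadjusted p of 0.0202 in edgeR's quasi-likelihood test. PFKM stood at 108 and 100.4 CPM in shCtrl and at 85.1 and 81.1 in shIGF2BP3, with a log2 fold change of -0.33 ± 0.13 (SE) and an unadjusted p of 0.0485. PFKP stood at 231 and 229 CPM in shCtrl and at 205 and 179 in shIGF2BP3, with a log2 fold change of -0.26 ± 0.14 (SE) that did not pass. For all 3 subunit genes the groups did not overlap. PFKP, the main form by summed FPKM (a level scaled by transcript length and library size), took 55.2% and 55.1% of the family's counts in shCtrl and 57.9% and 57.9% in shIGF2BP3. PFKL took 19.0% and 20.7% in shCtrl and 18.0% and 15.8% in shIGF2BP3.

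PFKL (ENSG00000141959) lies on chr21 at 44300051 to 44327376 (plus strand, GRCh38). PFKM overlaps SENP1 on the other strand, and it was not stated whether reads were counted by strand, so reads of the pair cannot be told apart. The same holds for TPI1, PFKFB2, ENO3, SLC16A3, RPE, PYGB and PYGL and their neighbours.

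Aldolase cleaves fructose 1,6-bisphosphate, and triose phosphate isomerase interconverts the products. ALDOA stood at 587 and 687 CPM in shCtrl and at 498 and 507 in shIGF2BP3, a log2 fold change of -0.34 ± 0.14 (SE). TPI1 stood at 1308 and 1504 CPM in shCtrl and at 1145 and 1053 in shIGF2BP3, a log2 fold change of -0.36 ± 0.15 (SE). Both had separate groups and unadjusted p values just above the threshold (0.0572 for ALDOA and 0.0558 for TPI1 in edgeR's quasi-likelihood test). ALDOC, the brain form of aldolase, was present at under 2 CPM in every library and its log2 fold change was -0.01 ± 0.34 (SE).

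The PFKFB genes encode bifunctional enzymes that make and break fructose 2,6-bisphosphate, the activator of phosphofructokinase. PFKFB4 stood at 4.02 and 5.61 CPM in shCtrl and at 3.16 and 2.29 in shIGF2BP3. The groups did not overlap, and the log2 fold change was -0.82 ± 0.30 (SE), with an unadjusted p of 0.036 and an adjusted p of 0.472 in edgeR's quasi-likelihood test. The difference was -0.56 without shCtrl replicate 2 and -0.61 without shIGF2BP3 replicate 2, and then missed the threshold of p, and in the former case also that of fold change. PFKFB3 ran from 5.61 to 16.8 CPM within shCtrl and from 4.84 to 12.6 within shIGF2BP3, a spread between replicates that exceeded any difference between groups. PFKFB2 differed by -0.02 ± 0.25 (SE) on the log2 scale.

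The lower steps of the path differed among themselves. GAPDH, which oxidizes glyceraldehyde 3-phosphate, was the most abundant member, at 10252 and 13795 CPM in shCtrl and at 11364 and 12292 in shIGF2BP3. Its shIGF2BP3 libraries lay between the shCtrl libraries, and the log2 fold change was -0.02 ± 0.20 (SE). GAPDH has 65 named pseudogenes in the RefSeq table, so its counts may include reads of near copies. The testis isoenzyme GAPDHS was counted at 102 and 81 reads in shCtrl and at 55 and 27 in shIGF2BP3, which is 2.71, 2.39, 1.59 and 0.98 CPM. Its groups were separate, and the log2 fold change was -0.98 ± 0.33 (SE) with an unadjusted p of 0.028 in edgeR's quasi-likelihood test. It lost the call without any of 3 libraries (shCtrl replicate 1 or 2, or shIGF2BP3 replicate 2), when the log2 fold change lay between -1.07 and -0.68.

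PGK1, the phosphoglycerate kinase that makes the first ATP of the path, showed the smallest p of the members. It stood at 857 and 768 CPM in shCtrl (813 ± 63.3, SD, n = 2) and at 575 and 459 in shIGF2BP3 (517 ± 81.6, SD, n = 2). The groups were well apart, with shIGF2BP3 at 63.6% of the control. The log2 fold change was -0.65 ± 0.17 (SE), with an unadjusted p of 0.00939 and an adjusted p of 0.472 in edgeR's quasi-likelihood test. DESeq2 gave an adjusted p of 0.0453. The change was -0.57 without shCtrl replicate 1 and -0.50 without shIGF2BP3 replicate 2, both short of the fold threshold. In the latter case PGK1 also missed the threshold of p. PGK1 (ENSG00000102144) lies on chrX at 78104174 to 78129296 (plus strand, GRCh38) and all its counts were assigned to 1 transcript. PGK1 has 2 named pseudogenes in the RefSeq table, so its counts may include reads of near copies. In all, 16 members have named pseudogenes, and the same limit holds for each.

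The enzymes of the next steps were also lower. PGAM1, the phosphoglycerate mutase, stood at 686 and 645 CPM in shCtrl and at 531 and 412 in shIGF2BP3, with a log2 fold change of -0.50 ± 0.17 (SE) and an unadjusted p of 0.0289 in edgeR's quasi-likelihood test. ENO1, the main enolase, stood at 3895 and 3883 CPM in shCtrl and at 2993 and 2542 in shIGF2BP3, with a log2 fold change of -0.49 ± 0.15 (SE) and an unadjusted p of 0.0216. In both genes the shCtrl libraries were close together and both shIGF2BP3 libraries were lower. PGAM1 has 13 named pseudogenes and ENO1 has 4, so a part of these counts is uncertain.

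The minor enolases gave values near 0. ENO2, the neuronal form, differed by 0.07 ± 0.34 (SE) and ENO3, the muscle form, by 0.10 ± 0.27 (SE) on the log2 scale, each with overlapping groups. ENO1 took 99.4% and 98.8% of enolase counts in shCtrl and 98.7% and 98.7% in shIGF2BP3. PKM, the pyruvate kinase of the last step, stood at 2475 and 2885 CPM in shCtrl and at 2488 and 2283 in shIGF2BP3. Its groups overlapped by a small margin and the log2 fold change was -0.17 ± 0.15 (SE).

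**Figure D2:**
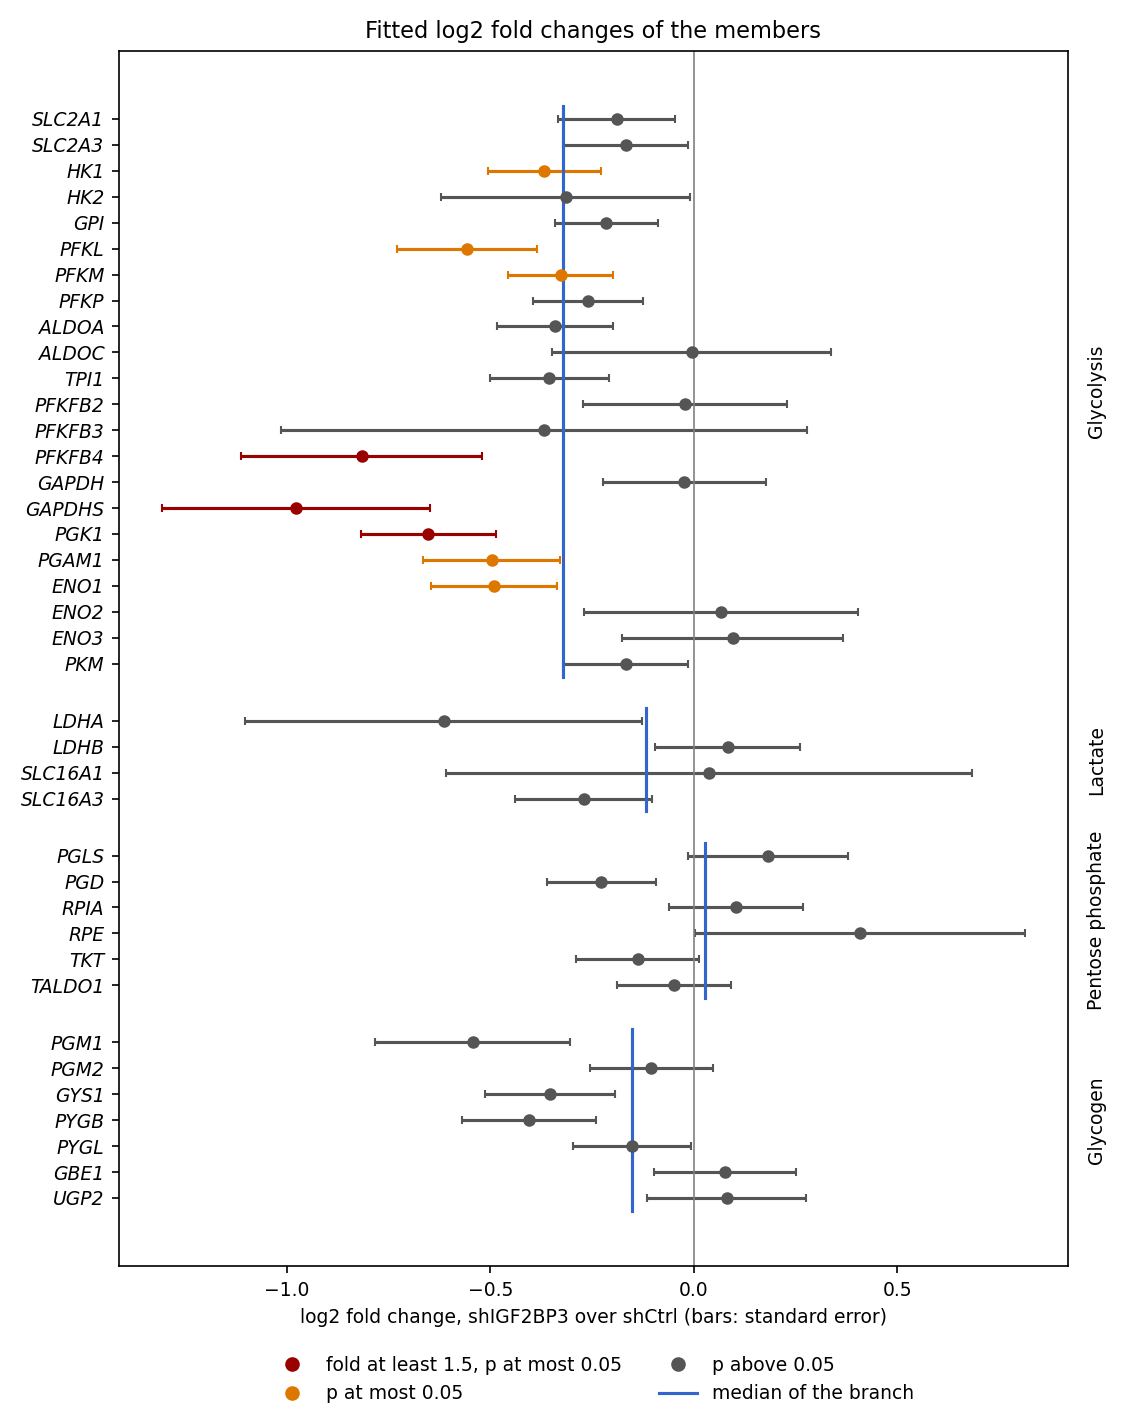
Fitted log2 fold change of each member (x axis, shIGF2BP3 over shCtrl, bars are the standard error) in pathway order (y axis), with a blue line at each branch's median. The 8 coloured points, all in glycolysis, have an unadjusted p of at most 0.05, and the 3 dark red ones also a fold change of at least 1.5.

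Per length, GAPDH led the members in shCtrl at 6526 ± 1156 FPKM (SD, n = 2), followed by ENO1 at 1920 ± 145 FPKM. PKM at 1048 ± 33.3 FPKM and TPI1 at 996 ± 25.7 FPKM came next, close together, with PKM above TPI1 in each of the 4 libraries. PGK1 was far lower, at 145 ± 21.8 FPKM in shCtrl and 88.4 ± 19.3 FPKM in shIGF2BP3. The summed level of the 22 glycolytic genes was 21325 and 25483 CPM in shCtrl and 20704 and 20602 CPM in shIGF2BP3. Without GAPDH the sums were 11073 and 11688 CPM in shCtrl and 9340 and 8310 CPM in shIGF2BP3. The glycolytic total of every shIGF2BP3 library was thus below that of every shCtrl library with or without GAPDH, with a clearer gap without it.

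Lactate dehydrogenase regenerates NAD+ by reducing pyruvate, and the monocarboxylate transporters carry lactate across the membrane. LDHA, the form that favours lactate formation, stood at 441 and 386 CPM in shCtrl and at 405 and 135 in shIGF2BP3. Only shIGF2BP3 replicate 2 was low. The log2 fold change of -0.62 ± 0.49 (SE) did not pass the test (unadjusted p of 0.259 in edgeR's quasi-likelihood test). It was -0.03 without shIGF2BP3 replicate 2 and -1.61 without shIGF2BP3 replicate 1. LDHB, the partner subunit, differed by 0.08 ± 0.18 (SE) on the log2 scale and was the main form per length, at 733 ± 159 FPKM against 204 ± 32.7 FPKM for LDHA in shCtrl. LDHA took 24.6% and 25.7% of the counts of both subunits in shCtrl, and 21.9% and 10.3% in shIGF2BP3.

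The lactate transporters gave no common direction. SLC16A1 (MCT1) stood at 76.8 and 64.2 CPM in shCtrl and at 26.2 and 119 in shIGF2BP3, so that the shIGF2BP3 libraries lay on either side of the control and differed 4.52-fold from each other. Its log2 fold change of 0.04 ± 0.65 (SE) went from -1.43 without shIGF2BP3 replicate 2 to 0.76 without shIGF2BP3 replicate 1. SLC16A3 (MCT4), the transporter known for lactate export from glycolytic cells, stood at 234 and 305 CPM in shCtrl and at 221 and 226 in shIGF2BP3. The groups were barely separate, and the log2 fold change was -0.27 ± 0.17 (SE). The summed counts of the 4 lactate genes were 2105 and 1875 CPM in shCtrl and 2097 and 1652 CPM in shIGF2BP3, with overlap.

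The pentose phosphate genes gave no common direction. PGD, an oxidative enzyme that forms NADPH, stood at 266 and 284 CPM in shCtrl and at 247 and 222 in shIGF2BP3, a log2 fold change of -0.23 ± 0.13 (SE). It was the pathway's sole member with separate groups. PGLS, the lactonase of the oxidative arm, differed by 0.18 ± 0.20 (SE) on the log2 scale.

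The enzymes of the non-oxidative arm, which exchange carbon with glycolysis, were no more uniform. RPE, the ribulose phosphate epimerase, stood at 41.5 and 22.0 CPM in shCtrl and at 54.5 and 29.6 in shIGF2BP3, a log2 fold change of 0.41 ± 0.41 (SE). In both groups replicate 1 was the higher. RPIA, the isomerase, differed by 0.10 ± 0.16 (SE) on the log2 scale. The transketolase gene TKT differed by -0.14 ± 0.15 (SE) and the transaldolase gene TALDO1 by -0.05 ± 0.14 (SE) on the log2 scale, each with overlapping groups. The summed pentose phosphate counts were 862 and 969 CPM in shCtrl and 867 and 840 CPM in shIGF2BP3.

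Among the glycogen genes, 3 had separate groups. PYGB, the brain form of glycogen phosphorylase, stood at 156 and 146 CPM in shCtrl and at 128 and 100.5 in shIGF2BP3, a log2 fold change of -0.40 ± 0.16 (SE). PGM1, the main phosphoglucomutase, which links glucose 6-phosphate to glucose 1-phosphate, stood at 34.8 and 31.1 CPM in shCtrl and at 27.3 and 17.9 in shIGF2BP3, a log2 fold change of -0.54 ± 0.24 (SE). GYS1, the glycogen synthase, stood at 27.7 and 31.1 CPM in shCtrl and at 24.2 and 21.8 in shIGF2BP3, a log2 fold change of -0.35 ± 0.16 (SE). These values were as large as those of several glycolytic members, yet their unadjusted p values of 0.0527, 0.0672 and 0.0736 in edgeR's quasi-likelihood test, in the order PYGB, PGM1 and GYS1, missed the threshold.

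The other glycogen genes had overlapping groups. PYGL, the liver phosphorylase, differed by -0.15 ± 0.14 (SE) on the log2 scale and PGM2, which acts mainly on pentose phosphates, by -0.10 ± 0.15 (SE). UGP2, which makes UDP-glucose, differed by 0.08 ± 0.20 (SE) and the branching enzyme gene GBE1 by 0.08 ± 0.17 (SE) on the log2 scale. Summed over the 7 genes, the counts were 445 and 404 CPM in shCtrl and 384 and 348 CPM in shIGF2BP3, so the sums did not overlap.

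The gap between glycolysis and its neighbours depended on the scale. On log2(FPKM + 1), fitted with limma, the medians were -0.35 for glycolysis, -0.34 for lactate and -0.35 for glycogen, and the pentose phosphate median was -0.03. On counts, the glycolysis median was the lowest of the 4 branches under every alternative run, including those leaving out any of the 4 libraries.

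The deposited values were given per transcript, and 30 of the 39 members kept 1 leading transcript in all libraries. In the other 9 the leading transcript differed between libraries, and in 16 members some transcript's share of the gene differed by more than 20 percentage points between libraries. Some of these differences lay in 1 library. For UGP2, ENST00000445915 held 92.3%, 93.5% and 92.7% of the counts in shCtrl 1, shCtrl 2 and shIGF2BP3 1, and 0% in shIGF2BP3 2, where ENST00000394417 held 83.5%. The gene's total in shIGF2BP3 2, 71.6 CPM, lay within the range of the shCtrl libraries, 54.6 to 77.1 CPM. For PYGL, ENST00000216392 held 44.9% and 79.7% in shCtrl and 24.9% and 99.7% in shIGF2BP3.

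In LDHA the gene's total was low together with some of its transcripts. ENST00000379412 stood at 316, 284 and 302 CPM in shCtrl 1, shCtrl 2 and shIGF2BP3 1, and at 40.8 CPM in shIGF2BP3 2, and its share of the gene was 30.2% there against 71.5% to 74.5% in the other libraries. Of 99 transcripts of the members that held at least 5% of their gene in some library, 37 had shares that did not overlap between the groups (37.4%), against 31.5% of such transcripts of all genes tested. The following were chosen after their values were seen. In ENO3, ENST00000518175 held 0% in both shCtrl libraries and 46.6% and 50% in shIGF2BP3, while ENST00000323997 held 45.5% and 28.6% in shCtrl and 0% in both shIGF2BP3 libraries. ENST00000381125, the leading transcript of PFKP, held 68.7% and 68.1% in shCtrl and 53.9% and 53.3% in shIGF2BP3. ENST00000512556 of PGM2 held 51.6% and 35.9% in shCtrl and 0% in both shIGF2BP3 libraries. ENST00000335181 of PKM held 7.1% and 6.4% in shCtrl and 0.7% and 0.5% in shIGF2BP3. Shares of transcripts that overlap along most of their length are estimates, and no test was made of them.

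Beyond the 39 members, 62 further genes of these pathways were examined (other isoenzymes, gluconeogenic enzymes and enzymes of neighbouring sugar routes), of which 42 passed the filter on low counts. Their median log2 fold change was -0.02, with 22 negative and 20 positive values. At the thresholds of fold change and unadjusted p, 3 were lower and 1 was higher, against 2.78% and 2.54% of all genes tested. LDHD, which oxidizes D-lactate, stood at only 1.78 and 1.56 CPM in shCtrl and at 0.67 and 0.87 in shIGF2BP3. Its log2 fold change of -1.13 ran from -1.21 to -0.38 under the alternatives that kept all libraries. STBD1, a glycogen-binding protein, had a log2 fold change of -0.85 (-0.92 to -0.55 under those alternatives). Some of its reads may belong to FAM47E-STBD1, which overlaps it on the same strand. PGAM4 had a log2 fold change of -1.22, but is a near copy of PGAM1, so its reads are uncertain. EPM2A, which encodes the glycogen phosphatase laforin, was higher with a log2 fold change of 1.31 (0.44 to 1.35 under the same alternatives). At the unadjusted p alone, SLC2A6 was also lower (-0.46) and EMB, a partner of monocarboxylate transporters, higher (0.49 on the log2 scale).

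Of 12 genes known to regulate glycolysis, PPARGC1A was not matched to a gene by position, and TXNIP had no counts. The other 10 passed the filter and 1 was called, higher, against 2.54% of all genes tested. ESRRA, a nuclear receptor that drives oxidative metabolism, stood at 28.4 and 23.1 CPM in shCtrl and at 41.9 and 44.0 in shIGF2BP3. This was a log2 fold change of 0.74. ESRRA overlaps TRMT112 on the other strand, so reads of the pair cannot be told apart. HIF1A, which encodes the hypoxia-inducible activator of glycolytic genes, differed by 0.01 ± 0.17 (SE) on the log2 scale and did not pass the test. MYC, another activator of glycolytic genes, stood at 4.89 and 11.2 CPM in shCtrl and at 17.0 and 6.5 in shIGF2BP3. Its groups overlapped, and the log2 fold change of 0.56 ± 0.57 (SE) ran from -0.29 to 1.27 when single libraries were left out.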

How the data were processed

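RNA-seq of 4 libraries was analysed, 2 shCtrl and 2 shIGF2BP3, grouped by their labels. The authors deposited whole-number estimated counts per Ensembl transcript, without normalization, and FPKM per transcript. The submitters' processing notes name CASAVA, FastQC, Trimmomatic, HISAT2, bedtools and GRCh38. The counter, the annotation and any use of strand are not given in the sources used here. The labels call the libraries biological replicates, without saying how these were separated (cultures, infections or hairpins), and p-values measure the spread between them. In the column names the shIGF2BP3 libraries bear the numbers 2 and 3, where the labels have 1 and 2. Each column was assigned through the FPKM table listed for its sample, and the labels' numbers are used here.

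Counts and FPKM of 95139 transcripts were summed to 20263 genes. Symbols came from the RefSeq table of GRCh38 by position (a shared part of at least 0.5 and a lead of 0.2 over the next gene), which named 18221 genes, 3 of them, among which were ALDOA and SLC16A3, by overlap weighted by transcript counts. Genes were tested with edgeR 4.0.16 (R 4.3.3, TMM, filterByExpr at 10 counts and a total of 15, glmQLFit, prior count 0.125), and p-values were adjusted by Benjamini-Hochberg over 13379 genes. The study's thresholds were used for calls (fold change 1.5, unadjusted p 0.05). CPM used TMM-scaled library sizes. The standard error of a log2 fold change is its size over the square root of the F statistic. Biological variation between libraries (edgeR's common coefficient) was 22.8%. The number of libraries, 2 per group, limits precision more than depth does. The code was tested on simulated counts.

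All members were named. Other pathway genes and regulators were named at the study's thresholds, or at the unadjusted p with no overlap between groups. HIF1A and MYC were named in addition. Some items are not reported here. Members and lists were chosen with earlier results of these data known. Alternatives were RLE factors, library totals with and without mitochondrial genes, DESeq2 1.42.0, other count filters, limma 3.58.1 on log2(FPKM + 1) or log2(FPKM + 0.1), a replicate block, transcripts with at least 10 counts, and leaving out each library.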

Additional observations from a re-analysis of the deposited data

How the results depend on the processing

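With 2 libraries per group, 2 against 2 permutations cannot give a p under 0.333, and no member passed at an adjusted p in edgeR. Medians moved by more than the replicate spread with library totals (all members -0.29, glycolysis -0.41) and with limma on log2(FPKM + 1) (all members -0.34, lactate -0.34, glycogen -0.35). They also did so with limma on log2(FPKM + 0.1) (all members -0.34, glycolysis -0.42, lactate -0.37, glycogen -0.40) and with limma without a filter (all members -0.33, lactate -0.34, glycogen -0.35). The median of all genes tested moved too, from -0.002 to -0.081 with library totals. In limma the median of all genes was -0.070 on log2(FPKM + 1), -0.081 on log2(FPKM + 0.1) and -0.026 without a filter. DESeq2 called 1 member lower at the study's thresholds, PGK1, against 2.10% of all genes. PGK1 was also the 1 member at an adjusted p under 0.05 in DESeq2, for which no share of all genes is given. IGF2BP3 passed the thresholds with library totals (-0.62) and in limma (-0.60, -0.68 and, without a filter, -0.60).

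Of the alternative values of single members, 515 kept their direction and side of the thresholds, 13 passed in addition, 14 (of PGK1, PFKFB4 and GAPDHS) missed them, and 41 in 15 members changed sign. Changes of sign occurred with library totals in SLC16A1 (-0.093), GBE1 (-0.0088) and UGP2 (-0.014), and with totals without mitochondrial genes in SLC16A1 (-0.011). In limma on log2(FPKM + 1) they occurred in ENO2 (-0.0047), ENO3 (-0.031), SLC16A1 (-0.36) and UGP2 (-0.057), with the same values without a filter, where ALDOC was also at 0.026. On log2(FPKM + 0.1) they occurred in ENO2 (-0.0031), ENO3 (-0.026), SLC16A1 (-0.40) and UGP2 (-0.058). The cause was not tested.

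Leaving out each library in turn gave 1 to 8 members lower and 0 to 1 higher at the study's thresholds, and 1 to 9 lower and 0 to 1 higher at the unadjusted p alone. A lone library was then assumed to vary like the other group. The pentose phosphate median ran from -0.070 to 0.028 and IGF2BP3 from -0.685 to -0.36. Log2 fold changes that changed sign ran from -0.27 to 0.29 in PFKFB2, -0.34 to 0.64 in ENO2, -0.17 to 0.43 in ENO3, -0.26 to 0.28 in ALDOC, -1.21 to 0.63 in PFKFB3, -0.22 to 0.21 in GAPDH, -0.068 to 0.23 in LDHB, -1.43 to 0.76 in SLC16A1, -0.27 to 0.013 in TKT, -0.15 to 0.059 in TALDO1, -0.075 to 0.25 in GBE1, -0.15 to 0.36 in UGP2, -0.80 to 0.058 in HK2, -0.010 to 0.21 in RPIA and -0.094 to 0.94 in RPE.

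Replicates are numbered 1 and 2 in each group by the labels, but same-numbered libraries did not deviate together (correlation 0.022). In the column names the shIGF2BP3 libraries bear the numbers 2 and 3, unlike in the labels, and the block rests on a number with no stated meaning. With the replicate number as a block, 8 members were lower at the unadjusted p (6 of glycolysis, PGM1 and PYGB), against 5.38% of all genes. At that p 1 member was higher (RPE), and the share of all genes in that direction is not given here. At the study's thresholds 2 members were lower, against 3.12% of all genes. The lactate median was -0.29, and the sign changed in SLC16A1 (-0.33), ALDOC (0.0014) and PFKFB2 (0.0026).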
